A study of Homo sapiens with 12 samples.

Results

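The comparison of trametinib alone with vehicle asked which transcripts changed when MEK was inhibited in OVCAR8 ovarian cancer cells, and it used 6 of the 12 RNA sequencing libraries of the study, all 3 of the trametinib group and all 3 of the control group. All 26485 annotated genes were counted, and 14865 had enough reads to be tested. OVCAR8 is an established human ovarian carcinoma line. The control cells received vehicle, and the treated cells received 100 nM trametinib for 7 h. Polyadenylated RNA was sequenced from stranded libraries with 100 bp paired reads. The remaining libraries came from cells given 150 nM EC359, an inhibitor of the leukemia inhibitory factor receptor LIFR, or EC359 together with trametinib at the same doses and time. They were used here to ask whether trametinib had the same effect when EC359 was present, and they entered the shared estimate of the spread. The line is a single model. The labels do not say whether the libraries of a group came from separate cultures. All p-values here measure only the spread between these libraries, which may be technical.

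RAS proteins at the membrane activate RAF kinases, which phosphorylate MEK1 and MEK2, and these in turn phosphorylate the ERK kinases. Active ERK enters the nucleus and drives a rapid wave of immediate early genes, ETS and AP-1 transcription factors and cyclin D1. It also induces its own inhibitors, the Sprouty and SPRED proteins and the dual specificity phosphatases (DUSPs), so the RNA of these feedback genes serves as a readout of ERK output. Trametinib is an allosteric inhibitor of MEK1 and MEK2 that is used in cancers with RAS or RAF mutations, low-grade serous ovarian cancer among them.

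Library totals were 26781386 to 32467283 counts in the control group and 24790392 to 30202815 with trametinib. Libraries of the same group were close. Their spread over the whole experiment, which edgeR names the biological coefficient of variation, was 3.95%. CPM below are read counts scaled to a common library size. Keratin RNA of an epithelial line was abundant in both groups, with KRT7 at 976 ± 15.3 (SD, n = 3) CPM in control libraries and 964 ± 23.9 with trametinib, while KRT8 fell by 0.13 and KRT18 by 0.40 on the log2 scale. PAX8, a transcription factor of Müllerian epithelium, was at 75.8 ± 2.13 CPM in control and 91.8 ± 2.40 with trametinib. The summed level of 14 epithelial markers was 4170 to 4250 CPM in control and 3750 to 3870 CPM with trametinib. KRT19, MECOM and EMX2 were at 0 in all 6 libraries, and MUC16, which encodes CA125, reached at most 1 count in any of them. Of 18 markers of leukocytes, endothelium, fibroblasts, red cells and liver, 5 were tested, PTPRC, CD3E, DCN, HBB and ALB were at 0, and the summed level was 480 to 506 CPM in control and 587 to 598 CPM with trametinib, most of it from COL1A1. Their part in the results was not tested.

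Trametinib lowered more genes than it raised at large fold changes. Under a threshold of 0.05 on the adjusted p-value together with a change of 2-fold or more, 142 genes were lower (0.955% of those tested) and 71 were higher (0.478%). Adjusted p-values come from the quasi-likelihood test of edgeR, with the Benjamini-Hochberg method applied over all 14865 genes, and fold changes are log2 of trametinib over control with their standard error (SE). The 2 directions differed in depth and in expression level. Among the lower genes 38 changed by at least 4-fold and 14 by at least 8-fold, against 7 and 2 of the higher genes. The higher group's level was at least 10 CPM for 61 of the lower genes but for 10 of the higher genes, whose median level was 1.36 CPM. Without a minimum fold change, 2260 genes were lower (15.2%) and 1937 were higher (13.0%), and most of these changes were small, 1346 and 1077 of them under 0.25 on the log2 scale. The median log2 fold change of all genes tested was 0.0044. In bulk RNA, fewer cells of a type and less RNA per cell cannot be told apart. Below, rose and fell refer to an adjusted p-value under 0.05, and called refers to genes that also changed by at least 2-fold.

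**Figure D1:**
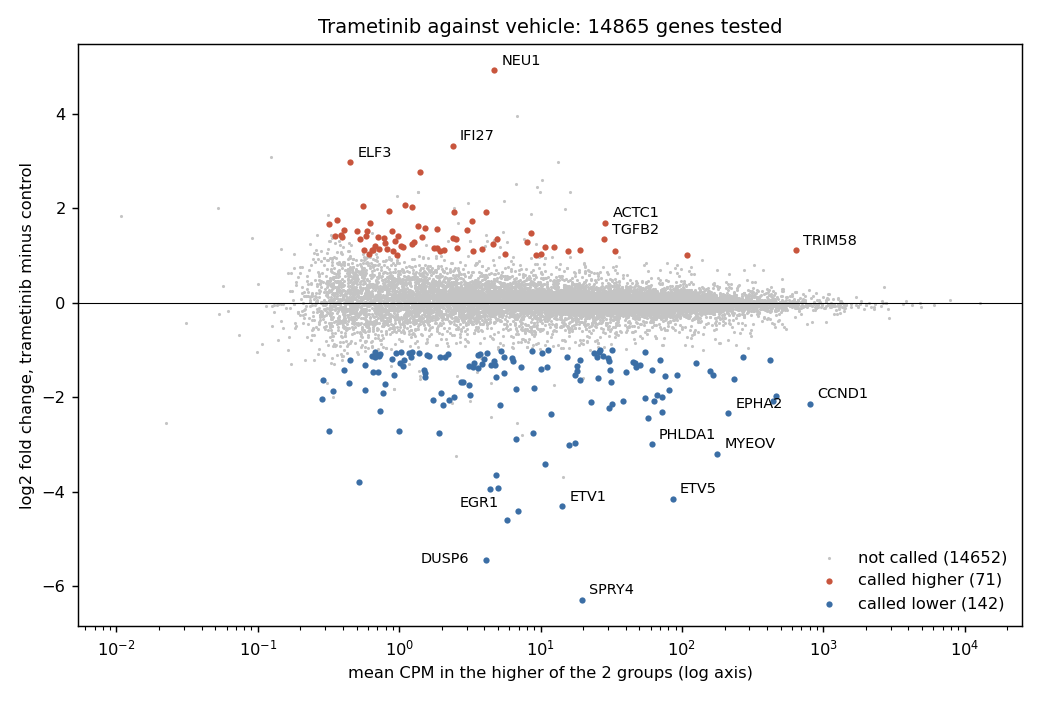
Log2 fold change of trametinib over control (vertical axis) against the mean CPM of the higher group (horizontal log axis) for the 14865 genes tested, with called genes in color. Genes called lower reach abundant transcripts such as CCND1, whereas most of the genes called higher lie under 10 CPM.

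The largest fall was in SPRY4, a Sprouty inhibitor of RAS to ERK signaling (hg38 chromosome 5, minus strand). SPRY4 was at 19.2, 19.1 and 20.3 CPM in the control libraries and at 0.281, 0.266 and 0.195 CPM in the trametinib libraries. Its groups were far apart, the treated level was 1.26% of control, and the log2 fold change was -6.28 (SE 0.128, adjusted p = 3.45e-43). DUSP6, the phosphatase that acts on cytoplasmic ERK, was at 3.75, 3.99 and 4.50 CPM in control and 0.0312, 0.190 and 0.0649 CPM with trametinib. In raw reads this was 384 counts against 8, a ratio of 45.8 (95% interval 23.0 to 107, counting error only). DUSP4 and DUSP5, phosphatases that act on nuclear ERK, fell by 3.94 and 2.43 on the log2 scale, and DUSP5 went from 56.2, 58.4 and 59.2 CPM to 10.5, 10.7 and 10.9 CPM.

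Most of the ERK feedback list moved with them. All gene lists here were written with earlier results of these data known, so their shares are a description only. Of 21 feedback genes tested, 13 fell (61.9%, against 15.2% of all genes) and 2 rose (9.52%, against 13.0%). Of the 13 that fell, 9 did so by at least 2-fold. The list median was -0.76 against 0.0044 for all genes. PHLDA1, a pleckstrin homology protein induced by ERK, fell from 61.7, 60.0 and 61.1 CPM to 7.71, 8.39 and 6.81 CPM. SPRY2 fell by 2.11, SPRED1 by 1.31, SPRED2 by 1.27 and SPRED3 by 2.75 on the log2 scale. Smaller falls were measured for ERRFI1 (-0.74), an inhibitor of EGFR, for DUSP7 (-0.66), and for DUSP1 (-0.33). The 2 that rose were DUSP10 (0.50) and DUSP16 (0.63), phosphatases directed mainly at the stress kinases JNK and p38, and their groups did not overlap. SPRY1, DUSP9, IL17RD and 3 further members did not pass the threshold.

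**Figure D2:**
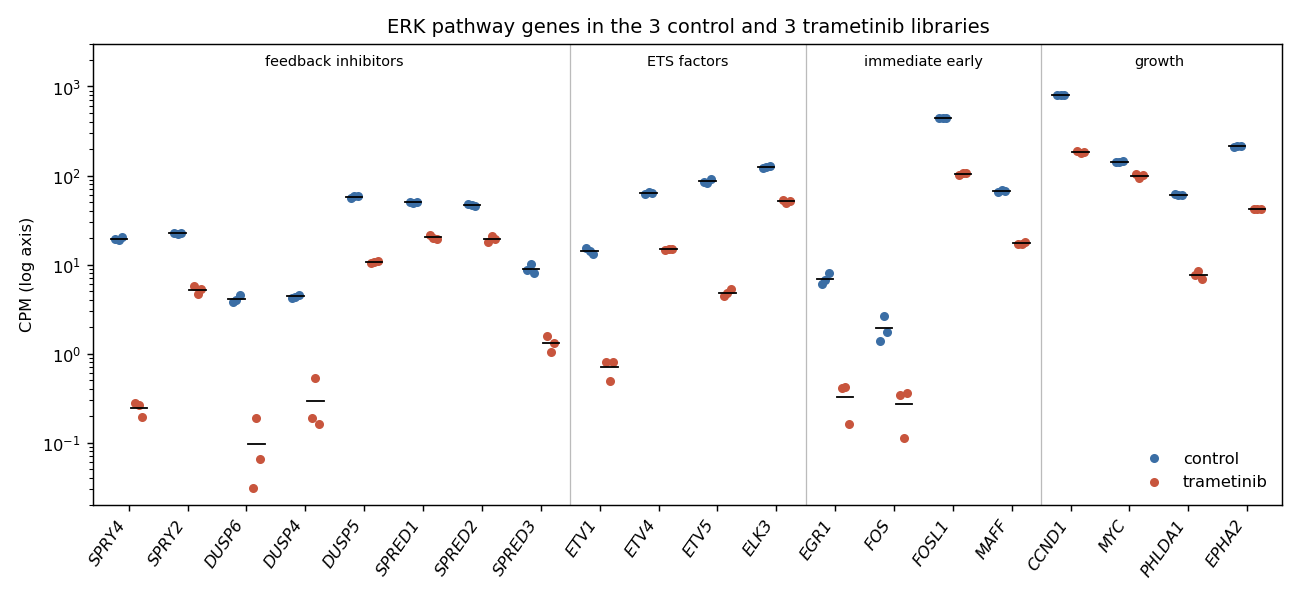
CPM on a log axis for 20 ERK pathway genes, 1 point per library, with control in blue, trametinib in red and the group mean as a black line. Every gene shown has its trametinib libraries below its control libraries, from SPRY4 with a log2 fold change of -6.28 to MYC with -0.52.

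The PEA3 subfamily of ETS transcription factors, whose transcription depends on ERK, fell as a group. ETV5 was at 85.0, 82.9 and 90.3 CPM in control and 4.49, 4.79 and 5.26 CPM with trametinib, a log2 fold change of -4.15 (SE 0.0586, adjusted p = 3.30e-51). ETV1 fell from 15.4, 14.1 and 13.2 CPM to 0.811, 0.494 and 0.811 CPM, and ETV4 from 61.8, 65.0 and 63.8 CPM to 14.7, 15 and 15.1 CPM. In all 3 the libraries of the 2 groups were widely separated. The ternary complex factor ELK3 fell by 1.28 (SE 0.0343, adjusted p = 3.07e-37), while its relatives ELK1 and ELK4, at -0.08 and -0.01, did not pass the threshold. ETS1 fell by 0.39 and ETV6 by 0.49, and ETS2 rose by 0.43. Of 16 ETS factors tested 6 fell (37.5%) and 4 rose (25%), against 15.2% and 13.0% of all genes. ELF3, an epithelial ETS factor, rose from very few reads, with 0.0357, 0.0634 and 0.0589 CPM in control and 0.374, 0.494 and 0.487 CPM with trametinib, a ratio of counts of 8.39 (95% interval 3.31 to 27.2, counting error only).

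Immediate early genes fell more often than they rose, 21 against 6 of 39 tested (53.8% lower and 15.4% higher, against 15.2% and 13.0% of all genes, median -0.21), but the size of the change differed widely between them. EGR1, a zinc finger factor induced through serum response factor (SRF) and its ETS partners, was at 6.07, 6.66 and 7.98 CPM in control and 0.406, 0.418 and 0.162 CPM with trametinib (log2 fold change -4.40, SE 0.19, adjusted p = 2.45e-20). PLK3, a polo-like kinase, fell by 3.42 and FOS by 2.77, the latter from 1.39, 2.63 and 1.74 CPM to 0.343, 0.114 and 0.357 CPM. No trametinib library of these 3 genes reached its lowest control library. IER3, an immediate early survival gene, fell with a ratio of counts of 3.81 (95% interval 1.72 to 9.58, counting error only), but it is annotated on several reference sequences and its call was lost without trametinib replicate 1 or 3 (adjusted p = 0.0533 and 0.0708).

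Among AP-1 subunits the FOS side fell and the JUN side did not. FOSL1, which encodes FRA1 and was the most abundant FOS family transcript per length (252 ± 1.81 FPKM in control, reads scaled to transcript length and library size), fell from 444, 442 and 438 CPM to 102, 106 and 106 CPM. Its log2 fold change was -2.07 (SE 0.0253, adjusted p = 3.13e-54). FOSL2 fell by 0.12 and FOSB by 0.57. JUN rose by 0.21 and JUND by 0.61, and JUNB (0.08) did not pass the threshold. JUND was at 79.9, 81.9 and 78.3 CPM in control and 121, 122 and 124 CPM with trametinib. ATF3, a stress-induced factor that pairs with JUN, rose from 3.46, 2.79 and 3.62 CPM to 8.46, 7.25 and 8.40 CPM (log2 fold change 1.29). The NR4A receptors NR4A1 (-0.08), NR4A2 (-0.04) and NR4A3 (-0.16) and SRF itself (0.08) did not pass the threshold.

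Promoter sequence is shown for 3 of the genes that fell, picked because each holds 1 of the motifs searched, through which ERK-induced factors are known to act. The windows run from 250 bases before to 50 bases after the RefSeq gene start (GRCh38.p14), and capitals mark the motif. EGR1 (chr5:138465229-138465528, plus strand) holds 2 CArG boxes, the SRF site, EPHA2 (chr1:16156020-16156319, minus strand) holds 1 cyclic AMP response element TGACGTCA, and LAMB3 (chr1:209651325-209651624, minus strand) holds 1 AP-1 site TGAGTCA, which appears as its reverse complement TGACTCA.
EGR1: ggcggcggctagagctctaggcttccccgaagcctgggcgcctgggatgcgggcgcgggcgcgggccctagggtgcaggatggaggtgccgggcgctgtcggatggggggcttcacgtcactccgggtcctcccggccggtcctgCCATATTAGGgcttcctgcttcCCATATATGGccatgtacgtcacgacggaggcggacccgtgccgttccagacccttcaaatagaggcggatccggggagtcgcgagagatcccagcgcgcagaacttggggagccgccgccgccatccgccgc
EPHA2: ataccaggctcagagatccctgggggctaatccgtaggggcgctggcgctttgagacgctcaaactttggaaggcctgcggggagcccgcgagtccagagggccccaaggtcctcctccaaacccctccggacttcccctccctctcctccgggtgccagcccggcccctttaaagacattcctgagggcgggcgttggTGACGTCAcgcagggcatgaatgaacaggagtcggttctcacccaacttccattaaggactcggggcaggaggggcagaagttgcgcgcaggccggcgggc
LAMB3: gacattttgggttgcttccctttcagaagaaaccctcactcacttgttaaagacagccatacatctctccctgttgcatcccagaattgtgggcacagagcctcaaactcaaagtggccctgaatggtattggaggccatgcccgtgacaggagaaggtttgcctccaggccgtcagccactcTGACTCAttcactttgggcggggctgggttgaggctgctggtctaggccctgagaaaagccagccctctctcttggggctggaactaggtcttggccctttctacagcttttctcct
On either strand, a CArG box was found in 0.959% of the 11475 promoters of tested genes, TGACGTCA in 3.06% and TGAGTCA in 3.45%. Among the 96 promoters of genes called lower these motifs were found in 1 (1.04%), 2 (2.08%) and 9 (9.38%). The other motifs searched were the ETS site CCGGAAGT and the E-box CACGTG. The ETS site was found in 8.02% of all 11475 promoters and the E-box in 9.67%, and in 2 (2.08%) and 1 (1.04%) of the 96. The windows of SPRY4, DUSP6, ETV1, PLK3, NAV3, PHLDA1, FOS, SPRED3 and PTX3 held none of them. A promoter was at hand for 96 of the 142 genes called lower and for 45 of the 71 called higher. These were too few to test a difference in motif shares, so the shares are only listed. A match is a description of the letters only.

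Cyclin D1, the D-type cyclin that ERK induces in G1, lost most of its RNA. CCND1 (hg38 chr11:69641105-69654474, plus strand) was at 812, 809 and 803 CPM in control and 188, 181 and 182 CPM with trametinib, which was 22.7% of control (log2 fold change -2.14, SE 0.0235, adjusted p = 3.80e-56). Per length, control cells held 188 ± 1.07 (SD, n = 3) FPKM and treated cells 42.8 ± 0.949 FPKM, so the 2 groups did not come near each other. Of 25 G1 genes tested 6 fell (24.0%, against 15.2% of all genes) and 7 rose (28.0%, against 13.0%). CCND3 fell by 0.30, CCNE1 by 0.24 and CDC25A, the phosphatase that activates CDK2, by 0.16, the last a call lost without trametinib replicate 3 (adjusted p = 0.0726).

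CDK inhibitors of the INK4 class rose, with CDKN2B, which encodes p15, at 12.4, 11.7 and 10.9 CPM in control and 17.5, 19.0 and 19.7 CPM with trametinib, and CDKN2C, which encodes p18, up by 0.42. CDKN1B, which encodes p27, rose by 0.15 (SE 0.0446, adjusted p = 0.00793), a call lost without trametinib replicate 1 (adjusted p = 0.0571). CDKN1C, which encodes p57, rose by 1.59 from a low level of 0.643, 0.444 and 0.441 CPM to 1.75, 1.29 and 1.52 CPM, and it is 1 of the genes that the annotation places on 2 reference sequences. CDKN1A, which encodes p21, was at 16.5, 16.5 and 17 CPM against 15.5, 14.7 and 16.9 CPM and did not pass the threshold (adjusted p = 0.299).

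Genes of S phase and mitosis moved little at 7 h. Of 47 DNA replication genes, 7 rose and 6 fell (14.9% and 12.8%, near the 13.0% and 15.2% of all genes). Every member lay between -0.16 and 0.19, and none reached 2-fold. Of 40 mitotic genes 17 rose and 3 fell, a share of 42.5% against 13.0% higher among all genes, with a median of 0.06. ANLN (0.27), a scaffold of the cytokinetic ring, and CDC25C (0.25) were the largest, whereas PLK1 (0.01), AURKA (0.02) and CCNB1 (-0.01) did not pass the threshold.

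Of the 20 MEK and ERK output genes tested, 19 fell (95%, against 15.2% of all genes, median -2.24) and SPRY1 did not pass the threshold. This list too was written with earlier results of these data known, so its share is a description only. MYC fell by less than any other member. It was at 142, 140.0 and 147 CPM in control and 103, 93.9 and 102 CPM with trametinib (log2 fold change -0.52, SE 0.0318, adjusted p = 3.13e-19). The groups did not overlap. Of 14 genes of the MYC and MAX network, 4 rose (28.6%, against 13.0% of all genes) and 2 fell (14.3%, against 15.2%). The rises included MXD3 (0.50), MXD1 (0.45) and MNT (0.32), which bind MAX in place of MYC. Of 50 MYC target genes, 44 fell (88.0%, against 15.2% of all genes) and 1 rose, with a median of -0.20 and no member past 2-fold. Examples are NOP16 at -0.53, RRS1 at -0.51 and DKC1 at -0.39, which act in the nucleolus in ribosome assembly.

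A list of invasion and growth genes was assembled for their known link to ERK, with earlier results of these data known. As for the other lists, its shares are therefore a description only. Of 29 tested members 24 were lower (82.8%, against 15.2% of all genes), 10 of them by at least 2-fold, and 2 higher (median -0.46). MYEOV, a gene of the CCND1 region on chromosome 11, fell from 176, 180.0 and 174 CPM to 19.5, 19.9 and 18.6 CPM (log2 fold change -3.19, SE 0.039, adjusted p = 3.13e-54). EPHA2, an ephrin receptor kinase, fell from 207, 216 and 215 CPM to 41.9, 42.0 and 42.2 CPM. HMGA2, a chromatin protein of embryonic tissue, fell from 72.0, 73.8 and 72.0 CPM to 18.5, 17.9 and 18.5 CPM. Each of these had its 2 groups well apart.

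In the urokinase system the protease PLAU was at -1.46 and its receptor PLAUR at -0.91, and both fell. The laminin chain LAMB3 fell by 1.53 and the integrins ITGA2, ITGB3, ITGA6 and ITGA3 by 2.16, 1.53, 0.65 and 0.46. Members with few reads fell too, ANGPTL4, an inhibitor of lipoprotein lipase, from 2.53, 3.52 and 3.5 CPM to 0.593, 0.988 and 0.908 CPM, PTHLH, the parathyroid hormone-like peptide, by 1.22, and the hormone STC1 with a ratio of counts of 3.22 (95% interval 1.42 to 8.20, counting error only). The STC1 call was lost with DESeq2 and without control replicate 2 or trametinib replicate 1 or 2 (adjusted p = 0.058 to 0.097). VEGFA (0.00) and MMP9 (0.01) did not pass the threshold, and AXL rose by 0.09 and MMP14 by 0.12.

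Further large falls lay outside the ERK lists. NAV3, which encodes a microtubule-binding neuron navigator protein, fell from 15.6, 15.5 and 16.7 CPM to 1.93, 1.86 and 2.11 CPM. GPR3, a receptor with constitutive activity toward cyclic AMP, fell from 16.3, 18.2 and 17.9 CPM to 2.12, 2.43 and 2.17 CPM. ENC1, an adaptor of the kelch family, fell from 72.4, 71.6 and 72.3 CPM to 14.3, 13.6 and 15.7 CPM. PTX3, a secreted pattern recognition protein, fell by 2.35, and NT5E, the CD73 ectonucleotidase, fell by 1.98 from a mean of 461 ± 8.61 (SD, n = 3) to 117 ± 0.417 CPM. In each of these the lowest control library was above the highest trametinib library.

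RNA for the cascade itself changed little. MAP2K1 and MAP2K2, which encode the targets of trametinib, were at -0.06 (adjusted p = 0.135) and 0.03 (adjusted p = 0.484), and MAPK3, which encodes ERK1, was at 0.04 (adjusted p = 0.578). MRAS, a RAS family GTPase, rose by 0.48 (SE 0.0482, adjusted p = 4.28e-12), from 29.5, 32.2 and 30.1 CPM to 43.0, 42.8 and 41.9 CPM. Of 35 cascade genes 7 rose and 4 fell (20% and 11.4%, against 13.0% and 15.2% of all genes). The only called member was RASA3, a GTPase activating protein of RAS and RAP, which fell from 54.4, 52.0 and 57.0 CPM to 14.4, 12.5 and 13.4 CPM. HRAS had a fitted value of -2.08 that did not pass the threshold, with 0.643, 8.12 and 0.706 CPM in control and 0.749, 0.456 and 1.01 CPM with trametinib.

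Receptor tyrosine kinases and their ligands moved in both directions, 9 higher and 13 lower of 39 (23.1% and 33.3%, against 13.0% and 15.2% of all genes). ERBB3, the kinase-impaired partner of EGFR and ERBB2, was at 76.5, 70.0 and 73.7 CPM in control and 136, 142 and 135 CPM with trametinib (log2 fold change 0.91, SE 0.0332, adjusted p = 1.31e-30). PDGFRB rose by 0.70, FGF2 by 0.38, INSR by 0.29 and IGF1R by 0.27. No trametinib library of ERBB3 or PDGFRB fell within the control range. Among ligands, HBEGF and TGFA, which bind EGFR, fell by 0.71 and 0.54, FGF5 by 0.73 and the neuregulin NRG2 by 1.10, and so did EGFR (-0.31) and MET (-0.25). AREG (-0.19) did not pass the threshold at 0.53 CPM.

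The LIF axis, which the study targets with EC359, showed small changes in RNA. LIFR was at 16.8, 13.9 and 15.6 CPM in control and 18.8, 17.4 and 17.8 CPM with trametinib, and rose by 0.22 (SE 0.0676, adjusted p = 0.00816). LIF itself was at 21.2, 22.2 and 21.7 CPM and then 18, 20.2 and 20.6 CPM, and fell by 0.15 (SE 0.0538, adjusted p = 0.0301). For both genes the groups did not overlap, but both calls were lost without control replicate 2 (adjusted p = 0.119 for LIFR and 0.109 for LIF) and without trametinib replicate 1 (adjusted p = 0.0684 and 0.304). That of LIF was lost as well without control replicate 3, with DESeq2, with scaling to total counts and with the 2 groups fitted alone (adjusted p = 0.0515 to 0.0778).

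Per length, the coreceptor IL6ST, which encodes gp130, was the highest of the receptor genes at 32.7 ± 1.37 FPKM in control, against 10.3 ± 0.272 for OSMR and 1.48 ± 0.14 for LIFR. IL6ST fell by 0.10 (adjusted p = 0.00437), a call lost without control replicate 3 or trametinib replicate 3 (adjusted p = 0.0973 and 0.0573), and OSMR fell by 0.48 from 62.8, 61.9 and 65.2 CPM to 47.7, 45.4 and 43.5 CPM. STAT3, the transcription factor downstream, was at 0.07 and did not pass the threshold (adjusted p = 0.0894), although it did with scaling to total counts only (adjusted p = 0.0172). SOCS3, a feedback inhibitor induced by STAT3, fell by 0.45, and the cytokines IL6 and IL11 fell by 0.46 and 0.47. Of the 35 genes of this family tested 8 rose (22.9%, against 13.0% of all genes) and 9 fell (25.7%, against 15.2%), and none was called.

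**Figure D3:**
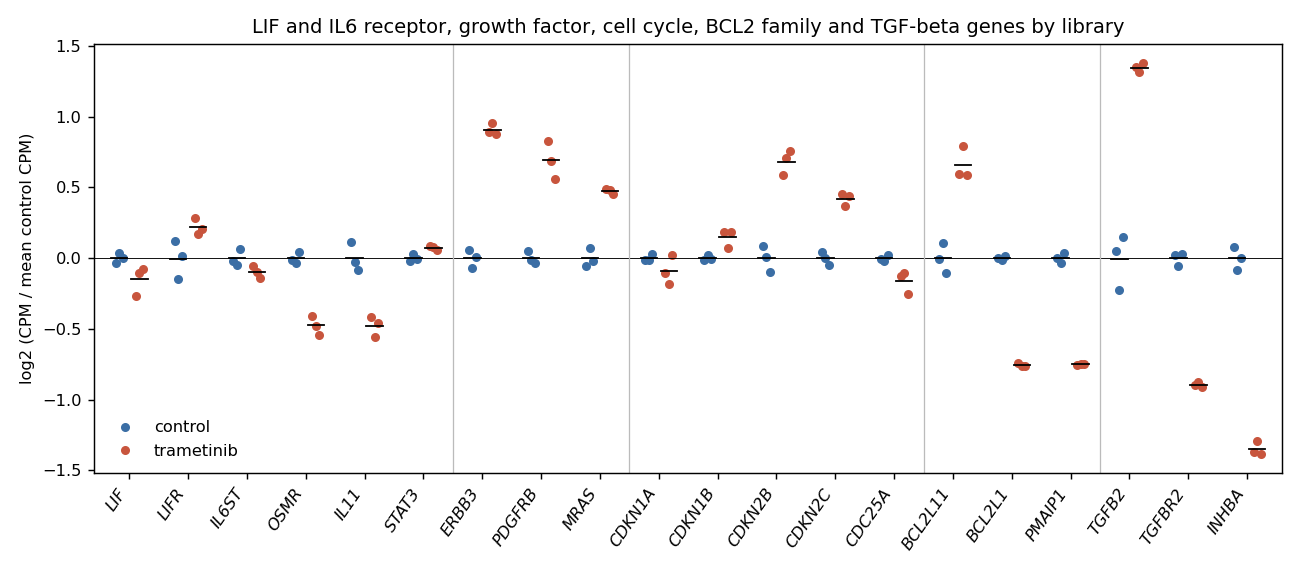
Log2 ratio of CPM to the control mean for 20 genes of the LIF and IL6 receptors, growth factor receptors and RAS, cell cycle, BCL2 family and TGF-beta signaling, 1 point per library, with control in blue, trametinib in red and group means in black. LIF, LIFR, IL6ST and STAT3 stay close to control, while ERBB3, BCL2L11 and TGFB2 lie above it and BCL2L1, TGFBR2 and INHBA below it.

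In the BCL2 family, members on both sides of the balance changed. BCL2L11, which encodes the BH3-only protein BIM, was at 5.36, 5.80 and 5.0 CPM in control and 8.15, 9.31 and 8.11 CPM with trametinib, a rise of 0.66 (SE 0.101, adjusted p = 3.93e-07). BBC3, which encodes PUMA, rose by 0.68 and BMF by 1.11, the latter under 1 CPM and lost without control replicate 1 or 2, without trametinib replicate 3 and with DESeq2 (adjusted p = 0.0566 to 0.0926). The survival genes BCL2L1 (-0.76), MCL1 (-0.65), BCL2 (-0.70) and BCL2A1 (-1.48) fell, BCL2L1 from 171, 169 and 173 CPM to 102, 101 and 101 CPM. PMAIP1, which encodes the BH3-only protein NOXA, fell as well (-0.75), from 52.0, 50.7 and 53.4 CPM to 30.8, 31.0 and 30.9 CPM. BAX (-0.09), BAD (-0.03) and BIK (0.42) did not pass the threshold. Of 18 members tested, 3 rose (16.7%, against 13.0% of all genes) and 7 fell (38.9%, against 15.2%).

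Genes called higher with at least 10 CPM were 10. ACTC1, cardiac actin, rose most, from 8.93, 8.88 and 8.74 CPM to 27.7, 30.5 and 27.7 CPM (log2 fold change 1.69, SE 0.069, adjusted p = 2.23e-28). TGFB2 rose from 11.5, 9.51 and 12.3 CPM to 28.3, 27.6 and 28.8 CPM. TRIM58, a ubiquitin ligase of the tripartite motif family, was at 292, 296 and 300.0 CPM in control and 642, 635 and 635 CPM with trametinib. These groups lay well apart in each case. The others were TNFRSF9 (1.18), OLFML2A (1.17), ARTN (1.12), FILIP1L (1.09), the cholesterol exporter ABCA1 (1.08), CSDC2 (1.03) and IGFN1 (1.01).

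Smooth muscle and actin regulators, many of them targets of SRF with its coactivators MKL1 and MKL2, rose in 13 of 27 cases and fell in 3 (48.1% higher, against 13.0% of all genes; median 0.06). CNN1, calponin, rose from 8.25, 8.69 and 7.74 CPM to 15.1, 16.7 and 16.4 CPM, TUFT1 by 0.84 and MKL1 by 0.42. FHL1 (-0.37) and the focal adhesion gene VCL (-0.23) fell.

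TGF-beta family genes were divided, with 6 higher and 8 lower of 40 (15% and 20%, near the 13.0% and 15.2% of all genes). Against the rise of TGFB2 stood falls of the receptor TGFBR2, from 74.2, 70.3 and 74.4 CPM to 39.1, 39.7 and 38.7 CPM, of the activin subunit INHBA (-1.35) and of the ubiquitin ligase SMURF2 (-0.71). The target gene ID1 fell by 0.68 while ID3 rose by 0.51. Targets of YAP and TEAD were divided too, with 11 higher and 14 lower of 31 (35.5% and 45.2%, against 13.0% and 15.2% of all genes). The YAP and TEAD targets ran from -1.98 (NT5E) to 1.35, with 3 called lower and 1 called higher. CTGF fell by 1.84 and ANKRD1 by 1.14, CYR61 fell by 0.21, and AJUBA and IGFBP3 rose by 0.45 and 0.51.

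Several chemokine and interleukin genes fell. Of 29 chemokine, interleukin and NF-kappaB genes tested 16 fell and 4 rose, 55.2% and 13.8% against 15.2% and 13.0% of all genes, with a median of -0.27. CXCL8, the neutrophil chemokine, was at 3.43, 3.90 and 3.5 CPM in control and 1.47, 1.18 and 1.46 CPM with trametinib, CXCL1 fell by 1.17, IL1B by 1.19 and CCL20 by 1.58. The NF-kappaB target BIRC3 fell by 0.78 and ICAM1 by 0.48, whereas RELA (0.00) did not pass the threshold and NFKBIA rose by 0.16.

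Interferon genes rose more often than they fell, 14 against 3 of 43 (32.6% and 6.98%, against 13.0% and 15.2% of all genes). Their median of 0.18 dropped to 0.04 without trametinib replicate 3. The rises were small and included STAT2 (0.44) and IRF9 (0.50), subunits of the factor that drives interferon genes, OASL (0.54) and IFIT1 (0.31), while CD274, which encodes PD-L1, fell by 0.51. GBP2, a guanylate-binding protein, was called higher, at 1.86, 1.78 and 1.06 CPM in control and 3.18, 3.95 and 2.92 CPM with trametinib. IFI27 had a fitted rise of 3.32 from 0.250, 0.222 and 0.235 CPM to 2.75, 2.28 and 2.14 CPM, but it lies on 2 reference sequences and its call was lost whichever library was left out (adjusted p = 0.0532 to 0.0848).

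Glycolysis genes fell in 15 of 28 cases, none by 2-fold, and rose in 3 (53.6% lower, against 15.2% of all genes, median -0.07), led by the hexokinase HK2 (-0.59) and the glucose transporters SLC2A3 (-0.47) and SLC2A1 (-0.32), with GAPDH (-0.01) not past the threshold. PDK4, a kinase that restrains pyruvate oxidation, rose by 1.38 under 1 CPM. Of 28 cholesterol genes, 8 rose (28.6%, against 13.0% of all genes), with HMGCS1 at 0.32 and INSIG1 at 0.43, and 1 fell (3.57%, against 15.2%). Lysosome and autophagy genes rose in 16 of 48 cases and fell in 3 (33.3% and 6.25%, against 13.0% and 15.2%). The rises included TP53INP1 at 1.13, under 1 CPM, GABARAPL1 at 0.62, ULK1 at 0.59, MITF at 0.53 and SQSTM1 at 0.29. FOXO and PI3K genes rose in 8 of 31 cases and fell in 3 (25.8% and 9.68%, against 13.0% and 15.2%). They included rises of CITED2 (0.76), CCNG2 (0.56) and TSC22D3 (0.50) and a fall of the insulin receptor substrate IRS1 (-0.70).

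Smaller sets also held single large movers. NPAS2, a partner of the clock factor ARNTL, fell from 6.57, 7.70 and 7.56 CPM to 2.87, 2.51 and 3.08 CPM, and PER2 fell by 0.83. Of 17 clock genes 5 fell (29.4%, against 15.2% of all genes) and 2 rose (11.8%, against 13.0%). KLF factors were evenly divided, 4 higher and 4 lower of 14 (28.6% each way, against 13.0% and 15.2% of all genes), with KLF4 at -0.48 and KLF5 at 0.34. Among 23 stress genes 7 rose (30.4%, against 13.0% of all genes) and 5 fell (21.7%, against 15.2%). The cystine transporter SLC7A11 rose from 33.4, 30.1 and 30.9 CPM to 52.9, 55.6 and 54.3 CPM, and heme oxygenase HMOX1 from 19.1, 20.1 and 19.7 CPM to 28.7, 30.6 and 30.5 CPM. Metallothioneins fell in 3 of 7 cases (42.9%, against 15.2% of all genes, with MT2A -0.34, MT1E -0.34, MT1X -0.35). Of 13 housekeeping genes 3 fell (23.1%, against 15.2% of all genes) and none rose. TFRC (-0.31) had the largest housekeeping fall.

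**Figure D4:**
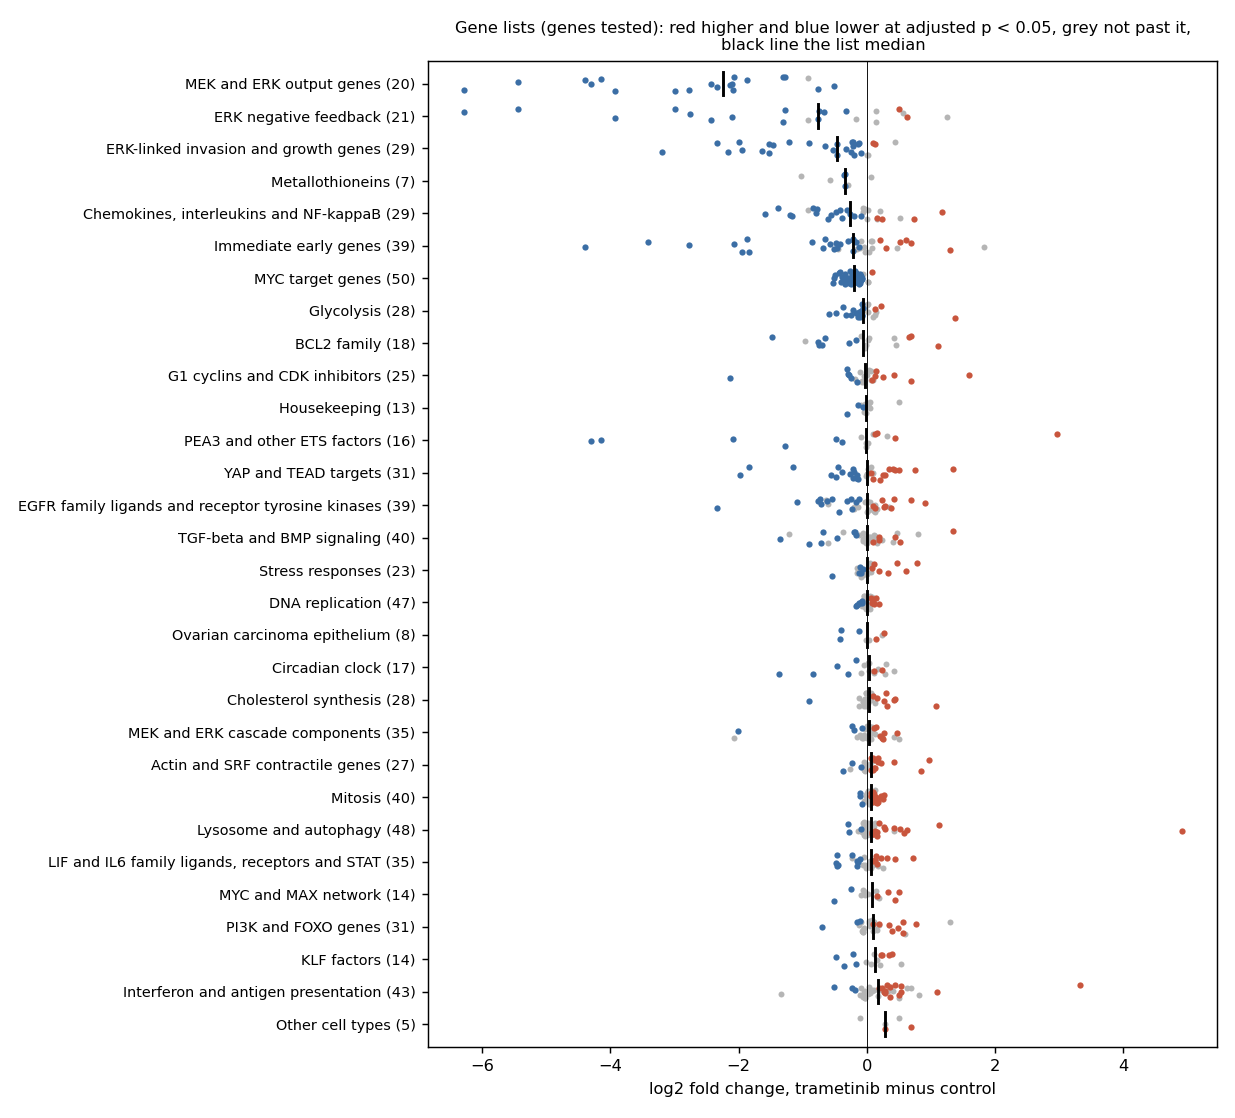
Log2 fold change of trametinib over control (horizontal axis) for the tested members of 30 gene lists, 1 point per gene, red higher and blue lower at an adjusted p-value under 0.05, grey otherwise, with the list median as a black line. The output, feedback and invasion lists have medians of -2.24, -0.76 and -0.46, and most other lists have medians near 0.

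Counts for a few called genes need care. The annotation places 432 of the tested genes on more than 1 reference sequence, and the median SE of their log2 fold change was 0.358, against 0.0617 for the other 14433. They include 6 of the genes called higher and 6 of those called lower. NEU1, with the largest fitted rise (4.91), was at 5.96, 7.94 and 0.130 CPM with trametinib and at 0.214, 0.0634 and 0.177 CPM in control, so its groups overlapped, and its call was lost when any of the 3 control libraries or trametinib replicate 2 was left out (adjusted p = 0.0503 to 0.0682). PPP1R10, a regulator of protein phosphatase 1 that was also chosen after its values were seen, went from 7.32, 5.36 and 2.35 CPM to 0.312, 0.304 and 0.357 CPM. B2M, as a further example chosen after its values were seen, was counted at only 4.59 ± 0.373 (SD, n = 3) CPM in control. Of the called entries with microRNA symbols, MIR4260 shares exons with LAMB3 and MIR3605 with PHC2, and reads of the genes of each pair cannot be told apart.

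EC359 was used as a second setting in which to measure the effect of trametinib. The EC359 and combination libraries are not those compared first, but the filter, scaling and spread came from all 12 libraries together. Combination against EC359 alone gave 3741 lower genes (25.2%) and 3578 higher genes (24.1%) at an adjusted p-value under 0.05. Of the 142 genes called lower with trametinib alone, 115 (81.0%) also fell in the presence of EC359, 92 of them by at least 2-fold, and 2, ANKRD1 and ADAM32, rose. Of the 71 called higher, 38 (53.5%) also rose and 1, RRN3, fell. ADAM32 and RRN3 are annotated on more than 1 reference sequence. Both shares were above those of all genes in the same direction, 25.2% and 24.1%. Of the 20 MEK and ERK output genes 18 fell there (median -2.06), SPRY1 did not pass the threshold, and the ephrin receptor EPHA4 rose by 0.87 after a fall of 0.77 without EC359.

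Several of the strongest effects were close in size in both settings. SPRY4 was at 81.6, 79.7 and 81.7 CPM with EC359 and 1.72, 1.3 and 1.5 CPM with the combination, a log2 fold change of -5.75 against -6.28 without EC359, and the difference of 0.54 (SE 0.258) did not pass the threshold (adjusted p = 0.190). EGR1 was at -4.60 against -4.40 and NAV3 at -2.98 against -3.01, and their differences did not pass it either. CCND1 was at -2.25 against -2.14, a difference of -0.11 (adjusted p = 0.0073). ERBB3 was at 0.96 against 0.91 and BCL2L11 at 0.78 against 0.66.

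The difference of the 2 trametinib effects passed an adjusted p-value of 0.05 for 4506 genes (30.3%), among them 87 of the 213 called genes, 69 lower and 18 higher. The effect was smaller in the presence of EC359 for 50 of the 69 and for 13 of the 18. These genes were chosen on their effect without EC359, which enters the difference. MAFF, a small MAF factor, fell from 65.1, 68.5 and 66.7 CPM to 16.9, 16.8 and 18.1 CPM without EC359 and from 456, 465 and 463 CPM to 303, 312 and 313 CPM with it, a difference of 1.37 (SE 0.0475, adjusted p = 7.02e-31). THBS1, which encodes thrombospondin and was chosen after its values were seen, was at -1.62 without and -0.18 with EC359. CLDN1, chosen in the same way, was at -2.23 and -1.04.

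ANKRD1, a muscle ankyrin repeat gene, went in opposite directions. It fell from 276, 269 and 263 CPM to 125, 118 and 122 CPM with trametinib alone, and rose from 495, 498 and 491 CPM to 723, 736 and 727 CPM when trametinib was added to EC359. All 4 groups were apart from each other. Larger effects with EC359 were measured for FOSL1, at -2.91 against -2.07, where the level fell from 803, 814 and 799 CPM to 105, 109 and 108 CPM, and for CXCL1, at -2.28 against -1.17. ACTC1 rose by 2.62 against 1.69. LIF fell by 0.74 with EC359, from 74.3, 72.8 and 74.5 CPM to 44.2, 43.7 and 45.0 CPM, against 0.15 without it, a difference of -0.59 (SE 0.0696, adjusted p = 1.06e-09), while for LIFR the difference of -0.21 did not pass the threshold (adjusted p = 0.084).

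Mitotic genes and metallothioneins also differed between the settings. Of 40 mitotic genes 24 fell and 5 rose in the presence of EC359, against 3 and 17 without it, and 28 differed. Of all genes tested, 25.2% fell and 24.1% rose in the presence of EC359, and 30.3% differed. Of 7 metallothioneins 5 rose with EC359 and none fell. MT1X rose from 43.3, 47.3 and 46.1 CPM to 105, 111 and 114 CPM, with its 2 groups apart.

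**Figure D5:**
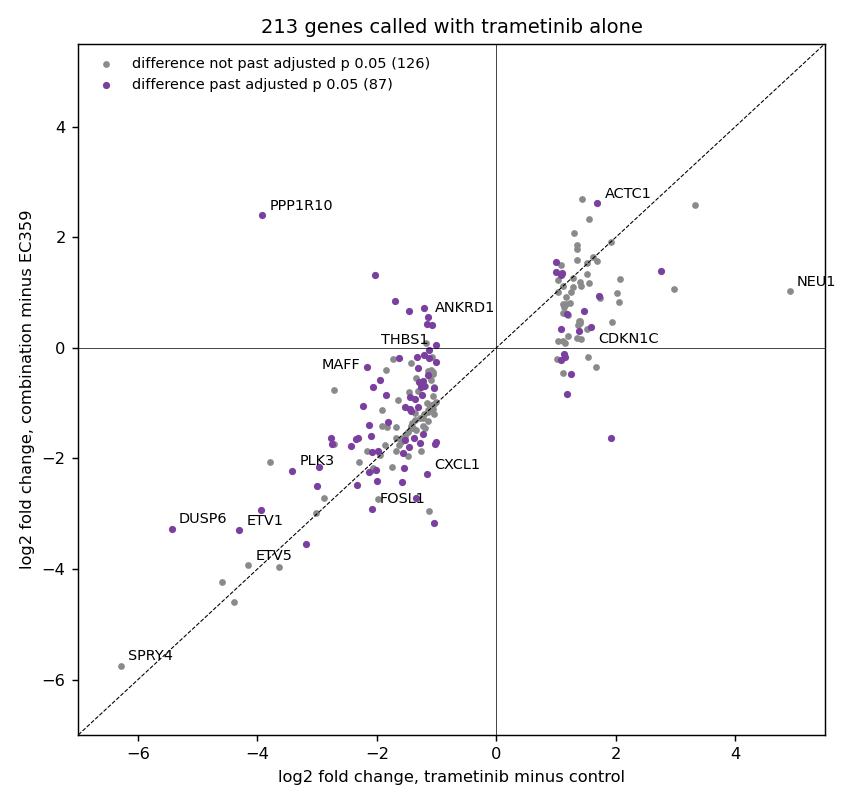
Log2 fold change of combination over EC359 (vertical axis) against trametinib over control (horizontal axis) for the 213 called genes, with the dashed line of equal effects and purple points where the difference passed an adjusted p-value of 0.05 (87 genes). SPRY4 and ETV5 lie close to the line, DUSP6, MAFF and THBS1 lie above it, and ANKRD1 is above 0 on the vertical axis.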

How the data were processed

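RNA of OVCAR8 cells was sequenced in 12 libraries, 3 per treatment. Per the file headers, the authors ran featureCounts 1.5.0-p1 with strand setting 2, a minimum mapping quality of 2 and fractional division of reads with several placements, so the deposited values are estimated counts (expected counts) per gene, not normalized. The submitters' processing notes also name bcl2fastq, HISAT2 and hg38. Versions of these are not given in the sources used here. Values were rounded to whole numbers, and 6365 of 26485 genes had no count.

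In R 4.3.3 with edgeR 4.0.16, genes were kept by filterByExpr at a minimum count of 10 and a minimum total of 15, scaled with TMM, and fitted in 1 robust quasi-likelihood model of all 12 libraries. Contrasts were trametinib against control, combination against EC359, and their difference, with Benjamini-Hochberg adjusted p-values over 14865 genes. CPM uses TMM library sizes and FPKM the exon length. The fit was tested on simulated data and recovered 100 of 100 genes changed by 1.32 and 100 of 100 changed by 2 on the log2 scale for trametinib against control, run on 14865 genes. Recovery was not tested separately for genes under 1 CPM or for genes on more than 1 reference sequence. Intervals and floors (3 counts) cover counting error only.

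Named genes were the 12 largest falls and rises among called genes of at least 10 CPM with groups apart (10 rises met this), every called list member, the 2 largest changes each way per list at 5 CPM or more, and a fixed set of pathway genes. Further list members are given with their list. The members and lists were chosen with earlier results of these data known. Alternatives were DESeq2 1.42.0, its size factors, total counts, other filters, a replicate block, each library left out, glmTreat against 1.5-fold, no minimum fold change and only the groups compared, and, chosen after the data were seen, only genes annotated on 1 sequence and a 2-fold minimum for the difference. Promoters are from RefSeq (GRCh38.p14). Results for some genes are not reported here.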

Additional observations from a re-analysis of the deposited data

Results flagged for a closer look

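Differences between the effect of trametinib without and with EC359 were tested in the same model, and 87 of the 213 called genes passed an adjusted p-value of 0.05 (quasi-likelihood test of edgeR, Benjamini-Hochberg method). Among named genes, those with a difference of at least 2-fold are given here as the effect with EC359 minus the effect without it, on the log2 scale. Falls were smaller with EC359 for DUSP6 (2.17), MAFF (1.37), PLK3 (1.20), FOS (1.14), PTHLH (1.10), SPRED3 (1.02), ETV1 (1.01) and DUSP4 (1.0). ANKRD1 (1.70) changed direction. The rises of TP53INP1 (-1.24) and CDKN1C (-1.21) were smaller with EC359, and the fall of CXCL1 (-1.12) was larger. FOS, PTHLH, TP53INP1 and CDKN1C were under 3 CPM in both groups of the trametinib comparison. The libraries of trametinib alone held 8 counts of DUSP6 and 25 of DUSP4 in sum. Leaving out control replicate 3 ended the call of TP53INP1 for trametinib alone.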

How the results depend on the processing

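The counts of called genes for trametinib against control (213, of which 71 higher and 142 lower) stayed between 199 and 254 under DESeq2, its size factors, total counts only, no filter, the replicate block, glmTreat, the 2 groups alone and genes annotated on 1 sequence, but the genes varied more: 190 of the 203 DESeq2 calls were shared with the 213, 134 of the 199 of glmTreat, and 181 to 186 when a library was left out. A minimum of 10 counts in every library, which tests fewer genes, left 134 called genes (33 higher) and, for combination against EC359, 263 (108 higher) of 482. Without a minimum fold change there were 4197 (1937 higher, 2260 lower) and 7319 (3578 higher, 3741 lower). The difference of the effects had no minimum fold change, and its 4506 genes became 99 with glmTreat against 1.5-fold (53 higher, 46 lower) and 233 with a 2-fold minimum (131 higher, 102 lower). The median of the MEK and ERK output genes was -2.24 and became -2.39 with the 2 groups alone. Leaving out 1 library gave 210 to 227 called genes, 68 to 82 higher and 140 to 145 lower. For combination against EC359 it gave 479 to 509, 236 to 269 higher and 238 to 254 lower, and for the difference 3969 to 4432, 1898 to 2065 higher and 2064 to 2367 lower. Called genes with the same direction within EC359 numbered 153 and then 145 to 150, and the output median ranged from -2.39 to -2.23. Of 163 named genes, 24 changed side of the threshold under an alternative other than glmTreat, with 0 reversals, and 93 were no longer past it under glmTreat against 1.5-fold, among them called genes with few reads (NEU1, IFI27, IER3, STC1, ITGB3, PDK4, PTHLH, GBP2 and NRG2). List medians close to 0 moved with single libraries and, for total counts only, with a shift of the median of all genes to 0.03. The replicate numbers did not pair the libraries, since same-numbered control and trametinib libraries had correlations of deviations of 0.017, -0.040 and 0.007. With the replicate block 209 genes were called, 206 of them shared. Depth limits genes under 1 CPM, where 24 of the lower and 29 of the higher calls lie.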
